A study of Homo sapiens with 4 samples.

Results

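A group of 9 genes for secreted plasma and acute-phase proteins was followed in lung adenocarcinoma (LUAD) cells after silencing circZFR, a circular RNA made from exons of the *ZFR* gene. The genes, chosen by name, were *FGA*, *FGB*, *FGG*, *FGL1*, *SERPINA1*, *C3*, *CP*, *CFB* and *LCN2*, out of 40205 genes listed. Earlier results of these data were known when they were chosen. RNA was sequenced from 4 libraries. NC 1 and NC 2 came from cells that had received a negative control siRNA, and si-circZFR 1 and si-circZFR 2 from cells that had received an siRNA against circZFR, for 24 h in both groups. Where 4 values follow each other, they are in this order. The study design names A549, a human LUAD line, but H1299, a different lung cancer line, stands in the labels of the samples, and nothing says whether the 2 libraries of a group came from separate cultures. P-values therefore measure only the spread between these libraries, which may be technical. Because whole cultures were sequenced, fewer cells that express a gene and less RNA of that gene in each cell cannot be told apart.

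Fibrinogen is the soluble precursor of the fibrin clot. It is built from pairs of 3 chains, alpha, beta and gamma, which *FGA*, *FGB* and *FGG* encode next to each other, and the chains are joined in the endoplasmic reticulum before secretion. The liver is the main source, and its output increases in the acute phase of inflammation, mostly through interleukin 6 and STAT3 together with C/EBP factors, while hepatocyte nuclear factor 1 (HNF1) keeps the genes active in hepatocytes. C3, factor B (*CFB*) and lipocalin 2 (*LCN2*) are also acute-phase proteins but are made by many epithelia and respond strongly to interleukin 1 and NF-kappaB. Cells of lung and other epithelial tumours can express several of these genes, and A549 cells are a common model for fibrinogen production outside the liver.

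Promoter sequences are shown first because they hold the letters through which these factors are described to act. *FGB* shares some of them with *FGA* and others with *FGG*. The windows run from 250 bases before to 50 bases after a start site, are given 5′ to 3′ on the strand of the gene, and come from RefSeq (GRCh38.p14). Of the 9 genes, 6 had a window in the table used. Capitals mark matches on either strand to TTGCNNAA (C/EBP), GTTAAT (an arm of the HNF1 site), TTCNNNGAA (STAT), CTGGGAA (the core of an acute-phase element that responds to interleukin 6), TGANTCA (AP-1) and an NF-kappaB pattern (GGG, any 5 bases, then CC). The *FGA* window lies at chr4:154590693-154590992 on the minus strand, that of *FGB* at chr4:154562761-154563060 on the plus strand and that of *FGG* at chr4:154612607-154612906 on the minus strand. The *CFB* window lies at chr6:31945845-31946144 and the *LCN2* window at chr9:128149203-128149502, both on the plus strand.
FGA: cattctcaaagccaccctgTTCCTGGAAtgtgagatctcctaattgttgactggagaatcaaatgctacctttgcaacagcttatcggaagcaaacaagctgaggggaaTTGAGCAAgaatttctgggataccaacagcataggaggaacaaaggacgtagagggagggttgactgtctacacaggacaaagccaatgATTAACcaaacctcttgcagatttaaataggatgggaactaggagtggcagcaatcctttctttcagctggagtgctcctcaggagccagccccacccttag
FGB: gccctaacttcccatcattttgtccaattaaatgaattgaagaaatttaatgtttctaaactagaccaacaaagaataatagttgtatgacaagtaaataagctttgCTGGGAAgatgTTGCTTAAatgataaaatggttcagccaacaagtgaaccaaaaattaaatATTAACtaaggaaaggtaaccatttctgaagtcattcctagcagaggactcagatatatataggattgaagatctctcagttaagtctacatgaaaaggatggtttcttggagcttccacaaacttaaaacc
FGG: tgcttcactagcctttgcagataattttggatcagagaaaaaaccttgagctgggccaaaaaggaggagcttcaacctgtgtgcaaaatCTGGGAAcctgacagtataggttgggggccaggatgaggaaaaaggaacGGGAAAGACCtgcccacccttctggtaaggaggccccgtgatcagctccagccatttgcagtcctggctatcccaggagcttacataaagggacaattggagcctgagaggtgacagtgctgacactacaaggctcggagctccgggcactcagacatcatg
CFB: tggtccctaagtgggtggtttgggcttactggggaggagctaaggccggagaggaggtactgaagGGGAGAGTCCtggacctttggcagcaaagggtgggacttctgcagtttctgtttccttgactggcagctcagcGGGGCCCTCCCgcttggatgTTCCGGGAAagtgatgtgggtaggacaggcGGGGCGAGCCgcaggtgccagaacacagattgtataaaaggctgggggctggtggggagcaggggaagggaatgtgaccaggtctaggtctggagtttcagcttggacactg
LCN2: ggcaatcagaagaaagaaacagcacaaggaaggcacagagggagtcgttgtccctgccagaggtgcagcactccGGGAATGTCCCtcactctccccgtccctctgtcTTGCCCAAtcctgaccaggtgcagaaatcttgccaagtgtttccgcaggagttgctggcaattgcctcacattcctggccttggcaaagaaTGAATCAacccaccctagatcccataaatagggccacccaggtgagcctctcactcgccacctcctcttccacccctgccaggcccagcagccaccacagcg

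Both the *FGA* and the *FGB* window held a C/EBP match and an HNF1 arm, and neither pattern was matched in the *FGG* window. In *FGA* these matches began at -141 and -52 from the start site, with a STAT match at -231. In *FGB* they began at -132 and -82, with CTGGGAA at -143. Another *FGB* window, for a start site further upstream, held the same letters at -101, -51 and -112. The *FGG* window held CTGGGAA at -161, the letters that it shared with *FGB*, and an NF-kappaB match at -112. The *CFB* window held 4 NF-kappaB matches, of which a pair overlapped from -112 and -111, and a STAT match at -92. The *LCN2* window held an NF-kappaB match on each strand, from -176 and -175, a C/EBP match at -143 and an AP-1 match at -52. *SERPINA1* had 2 windows, 1 with an HNF1 arm at -76 and 1 with an NF-kappaB match at 32 bases past the start. Among 35116 promoter windows, 10.5% held the C/EBP letters, 6.88% the HNF1 arm, 7.66% the STAT letters, 10.8% CTGGGAA and 7.71% the AP-1 letters. The NF-kappaB pattern was in 58.7% of all windows, so a match to it is common. A match describes letters and not a bound site.

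The 3 fibrinogen genes lay within 49957 bases of chromosome 4 (GRCh38), from 154563011 to 154612967. *FGB* is on the plus strand at 154563011 to 154572807, with 8 exons in the annotated main transcript. *FGA* lies at 154583126 to 154590742 and *FGG* at 154604134 to 154612967, both on the minus strand, with 5 and 9 exons. The only other annotated gene inside was a pseudogene that overlapped *FGG* by 126 bases.

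The libraries held 11040050 to 12816868 reads, as recovered from the deposited RPKM values (read density of a gene, per base of its length and corrected for library depth), and 97.9% to 98.3% of them lay on listed genes. Between libraries, RPKM was scaled by trimmed means, with factors of 0.904 to 1.11, and all levels below are scaled RPKM. *ZFR*, the host gene of the silenced circle, had 1437, 1740, 284 and 267 reads in the 4 libraries, a log2FC of -2.33 (SE 0.17, FDR = 0.0388 by limma). The circle and linear *ZFR* mRNA cannot be told apart in values per gene. By RT-PCR, the authors reported that their siRNA lowered the circle and did not detectably change *ZFR* in A549 cells. Whether linear *ZFR* mRNA fell in these libraries was not tested. Genes known to be high in A549 were abundant: *AKR1B10*, an aldo-keto reductase, was at 1296, 1677, 1448 and 1575, and *ALDH1A1*, an aldehyde dehydrogenase, at 752.9, 1009, 1167 and 1301. *CDKN2A*, which A549 has lost, was at 0 in every library. Which of the lines was used was not tested further.

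Markers of other cells that make these proteins were mostly near 0. Of 13 hepatocyte markers, 4 were at 0 in every library, albumin (*ALB*) among them, and the list summed to 1.40 and 2.36 in the NC libraries and to 1.61 and 1.31 in the si-circZFR libraries. Most of each sum was *HPD*, the 1 hepatocyte marker that reached 1 in every library, at 1.08, 1.82, 1.24 and 1.16. A count of 0 at this depth allows up to 0.234 to 0.272 CPM (reads on a gene relative to all reads of the library), from 3 reads (these floors cover counting error only). Of 7 leukocyte markers, 4 were at 0 in every library, including *PTPRC*, and 1 reached 1 in all of them. That was *CD68*, a lysosomal gene that other cells also use, at 79.3, 81.1, 78.2 and 55.1. The 9 fibroblast and endothelial markers summed to 0.721 to 2.04.

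After silencing circZFR, both si-circZFR libraries lay above both NC libraries in 8 of the 9 genes. In *SERPINA1* the groups overlapped and their means were nearly equal. The fibrinogen chains and ceruloplasmin were about 1.7 to 2.2 times as high in si-circZFR, *LCN2* about 1.5 times, and *FGL1*, *C3* and *CFB* about 1.3 to 1.4 times. None passed the test. Genes were tested by limma on log2(scaled RPKM + 1) if they reached RPKM 1 in 2 or more libraries, as did 8 of the 9 genes and 13885 genes in all. No gene of the 9 passed FDR < 0.05 with |log2FC| > 1, against 0.0576% of all genes tested (8 genes). At an unadjusted p under 0.05, 5 of the 8 were higher, against 10.1% of all genes tested. Both si-circZFR libraries were above both NC libraries in 8 of 8, against 28.1% of all genes tested. The genes were chosen with earlier results of these data known, so these shares describe them and test nothing. The filter bears on the count of 8. *FGL1* reached RPKM 1 in the si-circZFR libraries and in no NC library, so it could enter only by being high there. *FGB* reached it in both si-circZFR libraries but in only 1 NC library, so the NC libraries alone would not have let it in. Both genes stay in the counts above and in the median of the 8 genes. *SERPINA1* reached RPKM 1 nowhere. The median log2FC was 0.61 over the 8 genes and 0.55 over all 9, compared with 0.0063 over all genes tested. The log2 scale of RPKM + 1 understates the differences of low genes.

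**Figure D1:**
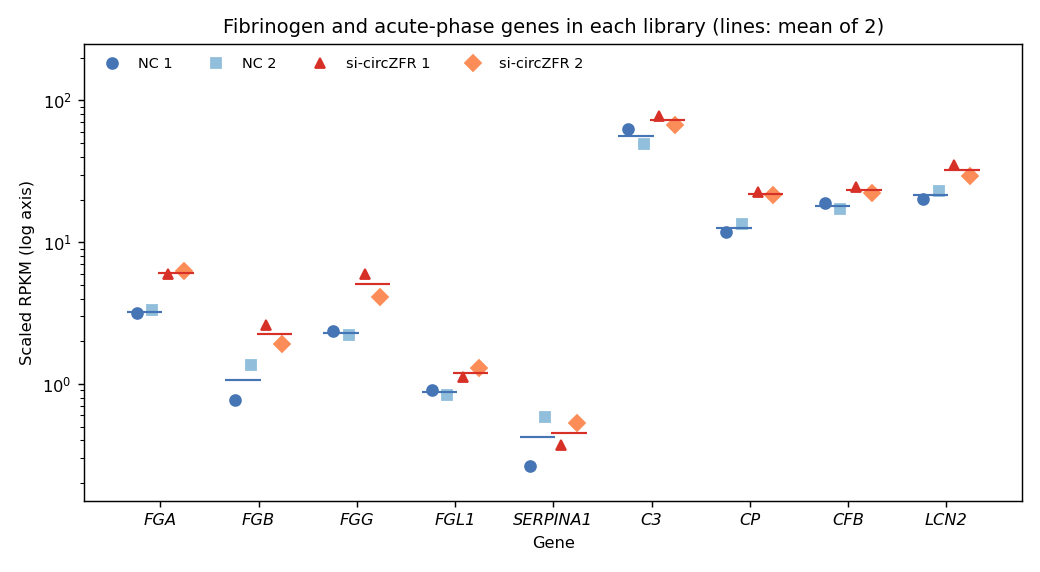
Scaled RPKM (log axis) of the 9 genes in each of the 4 libraries, with short lines at the mean of the 2 libraries of a group (blue NC, red si-circZFR). The red and orange points lie above both blue points for every gene but *SERPINA1*, and the levels run from under 1 for *SERPINA1* to 77.2 for *C3*.

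The order of the genes by level was the same in both groups, from *C3* through *LCN2*, *CFB*, *CP*, *FGA*, *FGG*, *FGB* and *FGL1* to *SERPINA1*. RPKM is per length, so levels can be set side by side between genes only as far as the lengths used hold. These were 3655 for *FGA*, 1961 for *FGL1*, 1761 for *FGG* and 3628 for *FGB*. The annotated main transcripts have 2209, 1237, 2072 and 3641 bases. The order of the genes and the shares of the fibrinogen chains given below depend on these lengths. In NC the means ran from 55.7 ± 9.56 for *C3* to 0.426 ± 0.227 for *SERPINA1* (SD, n = 2), and in si-circZFR from 72.3 ± 6.98 to 0.451 ± 0.114 (SD, n = 2). Neighbours in this order overlapped in some cases: *FGB* and *FGL1* in NC, *CFB* and *CP* in si-circZFR, and *FGA* and *FGG* in si-circZFR.

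*FGA*, the alpha chain, was at 3.15 and 3.31 in NC and at 5.97 and 6.21 in si-circZFR, from 135, 140, 250 and 278 reads. The groups stood well apart, and within each group the libraries were nearly equal. The means were 3.23 ± 0.112 and 6.09 ± 0.173 (SD, n = 2), a ratio of 1.89 and a log2FC of 0.75 (SE 0.16, FDR = 0.0968 by limma). Only 4.68% of all genes tested had a higher log2FC. *FGG*, the gamma chain, was at 2.37 and 2.21 in NC and at 5.99 and 4.13 in si-circZFR, from 49, 45, 121 and 89 reads. The lower si-circZFR library was still above both controls, although the si-circZFR pair was wide. Its means were 2.29 ± 0.117 and 5.06 ± 1.32 (SD, n = 2), with the highest log2FC of the 8 genes, 0.87 (SE 0.21, FDR = 0.116 by limma). *FGB*, the beta chain, was the lowest of the chains, at 0.775 and 1.36 in NC and at 2.60 and 1.91 in si-circZFR. It rested on 33, 57, 108 and 85 reads, and NC 2 came near si-circZFR 2 without reaching it. Its means were 1.07 ± 0.411 and 2.26 ± 0.483 (SD, n = 2), a log2FC of 0.66 (SE 0.23, FDR = 0.190 by limma).

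Summed over the 3 chains, fibrinogen stood at 6.30 and 6.87 scaled RPKM in NC and at 14.6 and 12.3 in si-circZFR. In CPM, without scaling, the sums were 18.1, 18.9, 42.5 and 40.9. *FGA* made up 50.01% and 48.1% of the summed RPKM in the NC libraries and 41.0% and 50.7% in the si-circZFR libraries. *FGG* made up 37.7% and 32.1% in NC and 41.2% and 33.7% in si-circZFR, and *FGB* 12.3%, 19.7%, 17.8% and 15.6%. The makeup by chain thus overlapped between the groups for all 3 chains, while their sum did not. *FGB* had the smallest share in every library.

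*FGL1*, a fibrinogen-like protein that the liver secretes and that is a ligand of the immune receptor LAG3, was at 0.912 and 0.836 in NC and at 1.11 and 1.29 in si-circZFR. Its reads were 21, 19, 25 and 31, so the gap between the groups was a few reads. The log2FC of 0.23 (SE 0.20, FDR = 0.519 by limma) was the smallest of the 8 genes, and 28.1% of all genes tested had a higher one. *SERPINA1*, which encodes alpha-1-antitrypsin, the main inhibitor of neutrophil elastase in plasma, was at 0.266 and 0.587 in NC and at 0.371 and 0.532 in si-circZFR, from 11, 24, 15 and 23 reads. The groups overlapped, and the mean difference of 0.03 on the log2 scale was smaller than the difference within either group. At 11 to 24 reads a modest difference was not detectable.

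*CP*, ceruloplasmin, is a copper-carrying ferroxidase of plasma. It was at 11.8 and 13.5 in NC and at 22.4 and 21.5 in si-circZFR, from 645, 728, 1200 and 1229 reads. The 2 groups were far apart relative to the spread within them. The means were 12.6 ± 1.19 and 22.0 ± 0.653 (SD, n = 2), a ratio of 1.74 and a log2FC of 0.76 (SE 0.16, FDR = 0.0938 by limma), which was the smallest FDR of the 8 genes. *LCN2*, a siderophore-binding lipocalin of the antibacterial response, was at 20.3 and 22.8 in NC and at 35.0 and 29.3 in si-circZFR, from 196, 217, 330 and 295 reads. Both si-circZFR libraries lay above both NC libraries. Its log2FC was 0.55 (SE 0.17, FDR = 0.160 by limma).

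*C3*, the component on which all complement pathways converge, had the highest level, at 62.5 and 49.0 in NC and at 77.2 and 67.4 in si-circZFR, from 3740, 2894, 4516 and 4207 reads. The NC libraries differed from each other by almost as much as the groups did. The log2FC was 0.38 (SE 0.20, FDR = 0.318 by limma), beside a difference of -0.35 between NC 2 and NC 1. *CFB*, factor B, carries the protease of the C3 convertase of the alternative pathway. It was at 19.0 and 17.0 in NC and at 24.7 and 22.2 in si-circZFR, from 584, 518, 743 and 715 reads. The groups did not overlap, and the log2FC was 0.36 (SE 0.16, FDR = 0.254 by limma).

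Some reads of these genes could belong to neighbours, since the strand setting of the counting is not given in the sources used here. *C3* shares 649 bases with *GPR108* and 1357 bases with a non-coding gene, both on the same strand. On the opposite strand, *CP* shares 11323 bases of its span with *HPS3*, and *FGL1* shares 7528 and 619 bases with non-coding genes. *CFB* shares 24 bases with *C2* and 6399 bases with an annotated gene of the same strand that runs through it. Levels of *CFB* are uncertain for that reason. The log2FC of all genes also went with gene length (Spearman's rho 0.29 across genes, which are not independent). The NC libraries differed with length as well, with a rho of -0.34 for NC 2 against NC 1, and the si-circZFR libraries hardly did, with a rho of 0.02. *LCN2*, with a length of 822 in the files, is short, and genes of similar length had a median log2FC of -0.29. For *C3* and *CP*, with lengths of 5101 and 4666, genes of similar length had a median of 0.10. When length and GC content were corrected for, the log2FC of *LCN2* was 0.91 (FDR = 0.0538 by limma) and that of *C3* was 0.24. For *FGA*, *FGB*, *FGG* and *CP* it was 0.72, 0.64, 0.997 and 0.68.

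**Figure D2:**
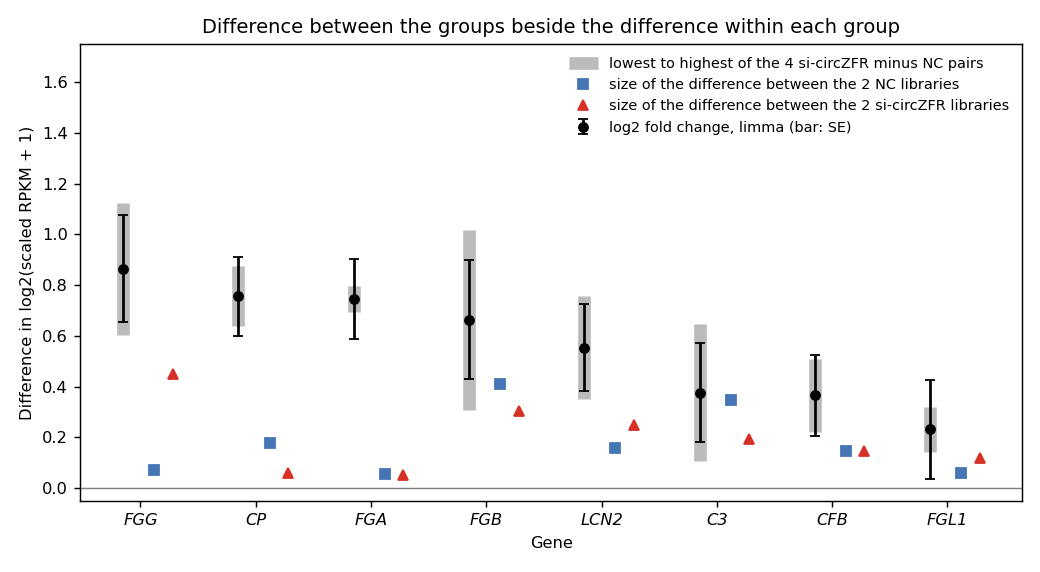
Difference between the groups in log2(scaled RPKM + 1) for the 8 genes tested, with the fitted log2FC and its SE in black and the lowest to highest of the 4 pairs of a si-circZFR and an NC library as a grey bar. The whole grey bar is above 0 for each gene, and for *FGA* it lies far above the differences within NC (blue) and within si-circZFR (red), whereas for *C3* the difference within NC is nearly as large as the log2FC.

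For each single gene, the 4 pairs of a si-circZFR and an NC library all had the same direction in the 8 genes tested. The log2 difference of a pair ran from 0.69 to 0.80 for *FGA* and from 0.64 to 0.87 for *CP*, and from 0.11 to 0.65 for *C3*. An exact two-sided permutation test of a single gene cannot give a p below 0.333 with 2 libraries against 2, so no such test was of use here.

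Under 14 alternative settings, the 8 genes stayed higher in si-circZFR in every one. Many of these settings could hardly have changed the direction. The other filters of RPKM, the replicate block and the fit without the trend left each log2FC as reported. Leaving out 1 library keeps the direction where both si-circZFR libraries lie above both NC libraries. The shared direction is thus no separate evidence in those settings. *CP* reached FDR < 0.05 once, with limma-voom on the recovered reads of genes above 1 CPM in at least 2 libraries (log2FC 0.80, FDR = 0.0481), a setting added after the data were seen, under which 3.16% of all genes tested reached that FDR. The other 7 genes reached it under none of the 14, and no gene of the 8 also had |log2FC| > 1 at that FDR. The lowest FDR over the alternatives was 0.0531 for *FGA*, 0.0814 for *FGG* and 0.111 for *FGB*, and the highest were 0.646, 0.617 and 0.661. On the reads themselves, without the constant that shrinks low genes, the log2FC was 1.11 for *FGB* and for *FGG* and 0.91 for *FGA*. The log2FC of *FGB* was 0.46 without NC 1 and 0.88 without NC 2, and that of *C3* was 0.55 without NC 1 and 0.20 without NC 2.

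**Figure D3:**
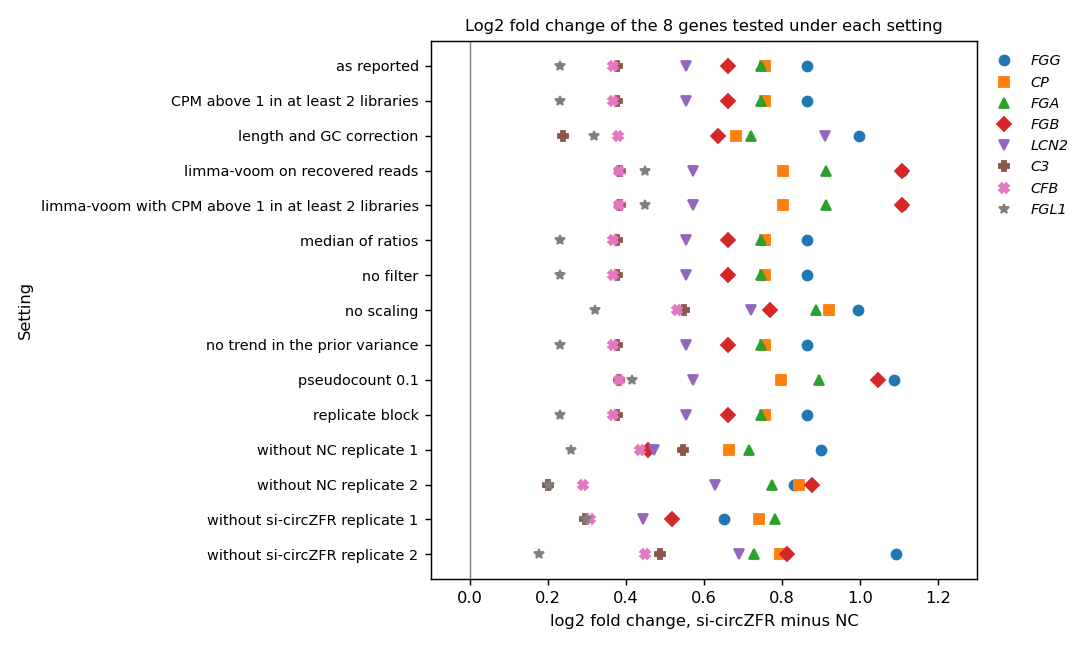
Log2FC (si-circZFR minus NC) of the 8 genes tested as reported and under 14 alternative settings, 1 row for each setting and 1 colour and marker for each gene. All points lie above 0, from 0.18 for *FGL1* without si-circZFR 2 to 1.11 for *FGB* and *FGG* with limma-voom.

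Genes of the same pathways were described by lists, and the 3 genes named first from each were those with the smallest p, so that a gap between their groups comes with the choice. Over all genes tested, both si-circZFR libraries lay above both NC libraries in 28.1% and below both in 28.1%, and the counts of each list are to be read against these shares. The filter bears on these counts too. *IL6* and *LCN12*, for example, reached RPKM 1 in no NC library, so they could enter only by being high in si-circZFR. In none of the 7 lists did a gene pass FDR < 0.05 with |log2FC| > 1 in either direction. Of 38 coagulation and fibrinolysis genes besides fibrinogen, 20 were tested, with 11 higher and 9 lower in si-circZFR and a median log2FC of 0.0071. Both si-circZFR libraries lay above both NC libraries in 7 of the 20 and below both in 6. *THBD*, thrombomodulin, which turns thrombin into an anticoagulant enzyme, was at 2.98 and 3.79 in NC and at 8.70 and 8.77 in si-circZFR (log2FC 1.16, FDR = 0.0782 by limma). *PLAUR*, the urokinase receptor, was also higher, with a log2FC of 0.51 (FDR = 0.172 by limma). *VKORC1*, which recycles vitamin K for the clotting factors, was lower, at 37.9 and 47.2 against 27.5 and 27.0 (log2FC -0.62, FDR = 0.143 by limma).

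Complement genes besides *C3* and *CFB* lay in both directions. Of 38 genes, 13 were tested, with 8 higher and 5 lower and a median of 0.05, and both si-circZFR libraries lay above both NC libraries in 5 of the 13 and below both in 2. *C1S*, a protease of the classical pathway, was at 38.8 and 33.8 in NC and at 53.5 and 52.2 in si-circZFR. *CFD*, factor D, which cleaves factor B, was at 7.05 and 8.83 against 11.1 and 16.4, a log2FC of 0.70 (FDR = 0.171 by limma). *CD59*, which blocks the membrane attack complex, was lower, at 26.9 and 41.2 against 20.7 and 19.9. Of 37 genes for other acute-phase and plasma proteins, 16 were at 0 in every library, 13 had reads but did not reach the filter and 8 were tested, with 6 higher, 2 lower and a median of 0.21. Both si-circZFR libraries lay above both NC libraries in 3 of these 8 and below both in 1. *APOE*, a lipoprotein component, had 21, 23, 36 and 67 reads. *RBP4*, the plasma carrier of retinol, was at 2.30 and 2.75 against 4.21 and 3.78. *SERPINA6*, the carrier of cortisol, was lower, at 2.17 and 1.79 against 1.11 and 1.31. None of the 8 had an FDR below 0.164.

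Among 40 cytokines, receptors and transcription factors that induce or regulate acute-phase genes, 34 were tested, 20 were higher and 14 lower, and the median log2FC was 0.12. Both si-circZFR libraries lay above both NC libraries in 13 of the 34 and below both in 11. *IL1R1*, the signalling receptor of interleukin 1, was at 5.46 and 4.53 in NC and at 14.7 and 14.3 in si-circZFR, from 350, 287, 924 and 954 reads. Its log2FC was 1.37 (SE 0.16, FDR = 0.0661 by limma). *CEBPD*, an acute-phase transcription factor, was at 5.66 and 7.25 against 14.5 and 13.6 (log2FC 1.02, FDR = 0.0820 by limma). *IL11*, a cytokine of the interleukin 6 family, was at 1.33 and 1.56 against 3.78 and 4.09 (log2FC 1.01, FDR = 0.0820 by limma). Each of these 3, and likewise *THBD*, reached FDR < 0.05 with |log2FC| > 1 under limma-voom with CPM above 1. For *IL1R1* this was so in 6 of the 14 alternatives, with an FDR from 0.0121 to 0.617 over all of them. Further genes of interleukin 6 and NF-kappaB signalling were picked after their values were seen. *IL6* itself had a log2FC of 0.48 (FDR = 0.244 by limma) and *IL6ST*, a receptor subunit, had -0.19 (FDR = 0.473 by limma). *IL6R*, the receptor, had means of 3.93 in NC and 8.73 in si-circZFR (log2FC 0.98, FDR = 0.0820 by limma), and *STAT3*, its main transcription factor, 34.9 and 56.1 (log2FC 0.67, FDR = 0.108 by limma). *SOCS3*, a target of STAT3 that feeds back on it, had 14.3 and 11.3 (log2FC -0.32, FDR = 0.288 by limma). *NFKBIA*, the inhibitor that NF-kappaB induces, had 79.6 and 57.6 (log2FC -0.45, FDR = 0.257 by limma).

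Of 28 receptors, partners and relatives of the 9 genes, 15 were tested, with 9 higher, 6 lower and a median of 0.08, and both si-circZFR libraries lay above both NC libraries in 5 of the 15 and below both in 4. *TGM2*, a transglutaminase that can crosslink fibrinogen, was at 64.1 and 66.5 in NC and at 121 and 95.6 in si-circZFR (log2FC 0.71, FDR = 0.133 by limma). *ICAM1*, an adhesion molecule that binds fibrinogen, was lower, at 13.1 and 12.7 against 8.33 and 8.405 (log2FC -0.56, FDR = 0.127 by limma). *LCN12*, a lipocalin, rested on 10, 1, 31 and 28 reads. All 26 genes of the secretory pathway that carries such cargo were tested, with 20 higher, 6 lower and a median of 0.19, and both si-circZFR libraries lay above both NC libraries in 15 of the 26 and below both in 3. *EDEM3* and *SYVN1*, which serve the degradation of misfolded glycoproteins, were at 3.77 and 3.13 against 7.28 and 9.40 and at 17.5 and 12.9 against 26.2 and 27.5. Their log2FC was 1.06 (FDR = 0.0820 by limma) and 0.79 (FDR = 0.115 by limma). *EDEM3* passed with limma-voom under either filter. Other genes of the same degradation route, picked after their values were seen, were lower: *EDEM1* was at 12.3 and 8.97 against 5.54 and 6.35 (log2FC -0.73, FDR = 0.133 by limma), the lowest log2FC of the list, and *SEL1L*, the partner of *SYVN1*, had a log2FC of -0.25 (FDR = 0.438 by limma). *SEC24C*, a cargo adaptor of the coat that leaves the endoplasmic reticulum, was at 33.8 and 30.4 against 50.5 and 48.1.

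Of 10 genes listed for the region around the fibrinogen cluster, 3 were tested, with 1 higher and 2 lower and a median of -0.08. Only *PLRG1* of these lies close to the cluster. *MAP9* and *MND1*, the 2 lower ones, lie further off, so the median says little about close neighbours. *PLRG1*, a spliceosome gene and the nearest on the side of *FGB*, was at 7.16 and 11.6 in NC and at 12.03 and 10.8 in si-circZFR, so the groups overlapped. *MAP9*, a microtubule-associated gene, was at 1.63 and 2.18 against 1.44 and 2.05, with overlap too. *MND1*, a meiotic recombination gene, was lower, at 3.70 and 4.996 against 2.60 and 2.66 (log2FC -0.55, FDR = 0.187 by limma), and its log2FC was -0.23 with the length and GC correction (FDR = 0.406 by limma). The difference between the fibrinogen genes and these genes was not tested.

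**Figure D4:**
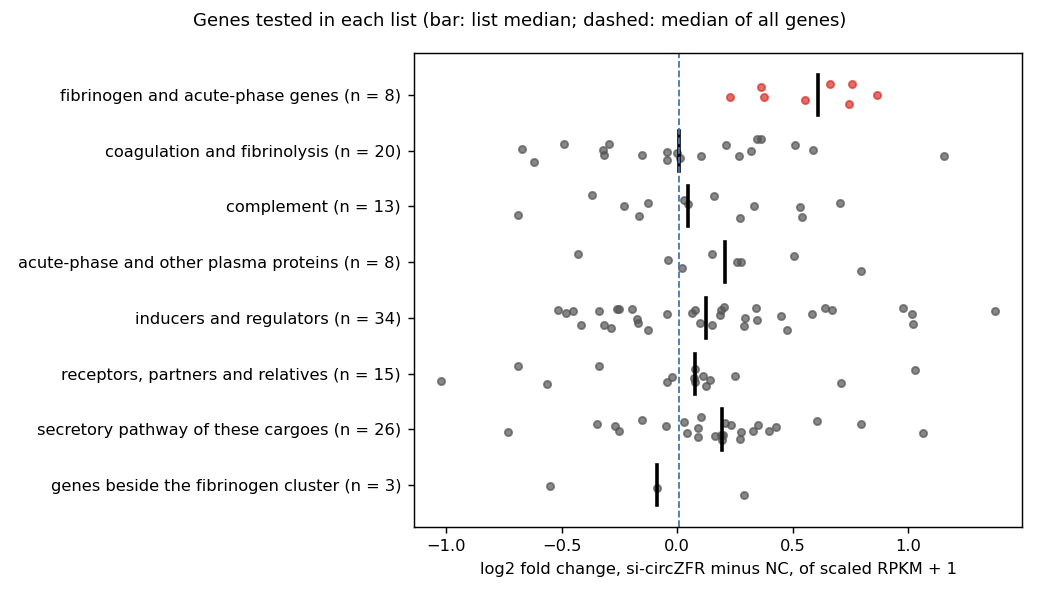
Log2FC (si-circZFR minus NC) of every gene tested in each of the 7 lists and of the 8 fibrinogen and acute-phase genes (red), with a bar at each median and a dashed line at the median of all genes. The red points are all above 0, whereas each list has points on both sides of 0.

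The profile of fibrinogen over the 4 libraries was compared with that of 5034 protein-coding genes with a mean of at least 10. Likeness was the Euclidean distance between log2(scaled RPKM + 1) values, each gene centred on its own mean, to the mean profile of the 3 chains. The nearest were *TGM2* at 0.101, *CLDN2* (a tight junction claudin) at 0.133, *MUS81* (a DNA structure-specific nuclease) at 0.158, *SERPINH1* (a collagen chaperone) at 0.160 and *AES* (a corepressor) at 0.172. Of the 9 genes, *CP* was at 0.129 and *LCN2* at 0.206, as near as *FGA* itself at 0.208, while *C3* was at 0.509 and *SERPINA1* at 0.790. *CLDN2* was at 6.95 and 7.07 in NC and at 14.9 and 12.3 in si-circZFR. With 4 libraries a near profile says little more than that a gene was higher in both si-circZFR libraries by a like amount on this scale. The added 1 shrinks the log2FC of low genes. On the reads themselves, with limma-voom, it was 1.11 for *FGB* and *FGG* and 0.91 for *FGA*. For *TGM2*, *CLDN2*, *MUS81*, *SERPINH1* and *AES* it was 0.72, 0.95, 0.76, 0.68 and 0.90.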

How the data were processed

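RNA from 2 NC and 2 si-circZFR libraries, grouped by the sample labels, was sequenced on the Ion Proton. The authors aligned the reads to hg38 (the submitters' processing notes name GRCh37) and deposited RPKM values per gene. They used SVA against batch effects and edgeR for differential expression, and whether the deposited values come before or after SVA is not given in the sources used here. The aligner, counter and annotation are not given in the sources used here. Whole reads, recovered from the RPKM values for 24284 of 24289 genes above 0 (99.979%, within 0.02 reads), gave depth and the limma-voom alternatives. RPKM was scaled by unweighted trimmed means (30% of ratios and 5% of mean levels trimmed). The filter kept genes that reached RPKM 1 in 2 or more libraries. On log2(scaled RPKM + 1), limma with a trended prior variance gave the test, and p-values were adjusted by Benjamini-Hochberg (FDR) over all genes tested. The scripts were also tested on simulated data.

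The 9 genes and the lists were chosen with earlier results of these data known. Besides the 9 genes and *ZFR*, the rule named the 3 genes with the smallest p of each list and the 5 nearest profiles. The result for 1 cell line marker is not reported here. Alternatives covered scaling, filter, pseudocount (0.1), a replicate block, length and GC content (GC known for 92.8% of genes tested), the prior, limma-voom, and leaving out each library. Among the genes tested, 189 had fewer than 10 reads in all. Gene positions came from GRCh38 (GENCODE). Software was limma 3.58.1 in R 4.3.3, and scipy 1.17.1, pandas 2.3.3, numpy 2.4.6 and matplotlib 3.10.9 in Python 3.11.15.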

Additional observations from a re-analysis of the deposited data

How the results depend on the processing

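The count of all genes passing FDR < 0.05 with |log2FC| > 1, 8 by the reported settings, moved with most of them. It was 0 without a filter, 172 with CPM above 1, 2 with a pseudocount of 0.1, 117 with the length and GC correction, 1 without the trend, 286 with limma-voom and 363 with limma-voom and CPM above 1 (added after the data were seen). Leaving out 1 library gave 0 to 736, the 736 without NC 1. The replicate block gave 63. The numbers 1 and 2 are not stated to mark a shared culture. Over genes, the deviations of same-numbered libraries correlated at 0.069, which cannot tell whether such libraries shared a culture. The block changed no call of the 9 genes. The count of the 9 genes that passed was 0 under all 14 alternatives.

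The median log2FC of the 8 genes, 0.61, was 0.74 without scaling, which also moves the median of all genes tested to 0.15, and 0.48 to 0.71 when 1 library was left out, with 0.48 without si-circZFR 1. *PLRG1* had a log2FC of -0.031 without NC 1 and up to 0.60 when another library was left out. *MAP9* had 0.031 without scaling and -0.24 to 0.087 when 1 library was left out, with 0.0495 without NC 2. The cause was not tested. For *FGL1* and *SERPINA1*, with 19 to 31 and 11 to 24 reads, depth is a limit. *ZFR* was lower under all 14 alternatives, with an FDR of 0.05 or more under 6 of them.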

Other observations

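Among the lung epithelial markers, surfactant genes and *NKX2-1* were at or near 0 in every library, as were *SCGB1A1* and *SFTPC*, whereas the simple keratins were high. Some epithelial genes differed between the groups without overlap. They were picked here after their values were seen, and their test results are not given. Both si-circZFR libraries lay above both NC libraries in 28.1% of all genes tested. *CDH1*, the epithelial cadherin, was at 11.4 and 8.52 scaled RPKM in NC 1 and NC 2 and at 21.7 and 21.3 in si-circZFR 1 and si-circZFR 2. *KRT19*, a keratin of simple epithelia, was at 95.6 and 129 against 178 and 187. *EPCAM*, an epithelial adhesion molecule, was at 0.397 and 0.402 against 1.83 and 2.66, from 2, 2, 9 and 14 reads. *EPCAM* could pass the filter only by being high in si-circZFR, so the share above is no measure for it. The 13 markers summed to 3728 and 4771 in NC and to 5070 and 5424 in si-circZFR. Iron storage genes, also picked after their values were seen, went the other way. *FTL* and *FTH1*, the ferritin chains, had means of 10414 and 1050.3 in NC and of 5111 and 649.9 in si-circZFR. Their log2FC was -1.02 (FDR = 0.331 by limma) and -0.69 (FDR = 0.219 by limma), so neither passed. Both si-circZFR libraries lay below both NC libraries in these genes, as in 28.1% of all genes tested.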
